A study of Homo sapiens with 16 samples.

Results

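Expression of 10 genes of the kynurenine pathway and of aryl hydrocarbon receptor signalling (TDO2, IDO1, KMO, KYNU, HAAO, QPRT, AHR, AHRR, CYP1B1 and TIPARP) was followed in Ccd18-Co, a fibroblast line from human intestine. All 10 were among the 40663 gene symbols of the count table and were taken by symbol. KYNU was chosen by its level in the GSK-J4 and vehicle libraries of these same data, and the other 9 genes were added for their roles, with results of these data known. Bulk RNA-seq covered 16 libraries, 4 for each of 4 groups. Cells of 3 groups had gone through 3 pulses of a cytokine mix (10 ng/ml each of TNF, IL-17A and OSM, and 0.1 ng/ml of IL-1B), each pulse lasting 72 h and followed by 96 h without cytokines. After a rest of 1 week the pulsed cells spent 5 days with DMSO (here called vehicle), with 250 nM belinostat, a histone deacetylase inhibitor, or with 10 µM GSK-J4, an inhibitor of the histone demethylases KDM6A and KDM6B. Doses and the number of replicates are those of the labels. The study's own text gives a lower dose of IL-1B in places and a higher dose of belinostat as its usual one. It also gives a lower dose of GSK-J4 in an ELISA, and fewer replicates for RNA-seq. The doses behind these libraries are therefore uncertain. RNA was collected 2 weeks after the compounds were withdrawn, so every value is a level after withdrawal. The unstimulated group received DMSO and no cytokines. All libraries came from a single cell line, and the labels do not say whether replicates were separate cultures, so p-values measure the spread between these libraries, which may be technical.

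The kynurenine pathway is the main route by which cells break down tryptophan. TDO2, IDO1 and IDO2 open the tryptophan ring, KMO and KYNU convert kynurenine further, and HAAO and QPRT lead on to quinolinate and the nicotinamide coenzyme NAD. Kynurenine and several indole compounds are ligands of the aryl hydrocarbon receptor, AHR, a transcription factor that pairs with ARNT, binds DNA at xenobiotic response elements and switches on CYP1A1, CYP1B1, AHRR and TIPARP, the last 2 of which restrain it. In the gut, AHR is known as a sensor of dietary and microbial indoles.

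Libraries held 14.4 to 19.5 M estimated counts. All 10 fibroblast markers examined (among them COL1A1, DCN and PDGFRB) were detected in every group. The 10 macrophage and monocyte markers, cells known for KYNU, KMO and IDO1, summed to 3.33 to 15.6 CPM (estimated counts scaled to the library total) in a library, most of it CD14, and AIF1 and ITGAM were at 0 in all 16 libraries. The 5 hepatocyte markers, cells known for TDO2 and HAAO, summed to 0 to 0.341 CPM, with TTR at 0 throughout. Among the belinostat libraries, replicate 17 stood apart in several genes below and in the mean squared difference between replicates, used to judge sampling noise. Its pairs gave 26.5 to 31.6, against 3.69 to 4.70 for the other belinostat pairs. Unstimulated pairs were also far apart, at 6.59 to 31.3, the highest for replicates 1 and 3. Vehicle pairs gave 2.97 to 10.8 and GSK-J4 pairs 3.49 to 7.52. Results that rest on belinostat replicate 17 are given with and without it.

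Values below are normalized counts, that is, estimated counts divided by DESeq2 size factors, with mean ± SD of 4 libraries. A gene was called when its Benjamini-Hochberg adjusted p from DESeq2's Wald test over all genes was under 0.05. In bulk RNA, fewer cells that express a gene and less of its RNA per cell cannot be told apart. Of the 10 genes, 6 averaged at least 50 normalized counts over all libraries (KYNU, QPRT, AHR, AHRR, CYP1B1 and TIPARP) and 4 lay under it (TDO2, IDO1, KMO and HAAO). Per kilobase of the canonical transcript, the 4 receptor genes in unstimulated cells ranked as AHRR at 595.7 ± 31.5, TIPARP at 297.5 ± 20.5, AHR at 171.9 ± 7.69 and CYP1B1 at 25.57 ± 4.20 normalized counts per kilobase, with QPRT at 96.47 ± 16.5 between the last 2. The order of these 4 genes was the same with the median length of each gene's coding transcripts, whereas the places of KYNU and QPRT changed with the length used.

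**Figure D1:**
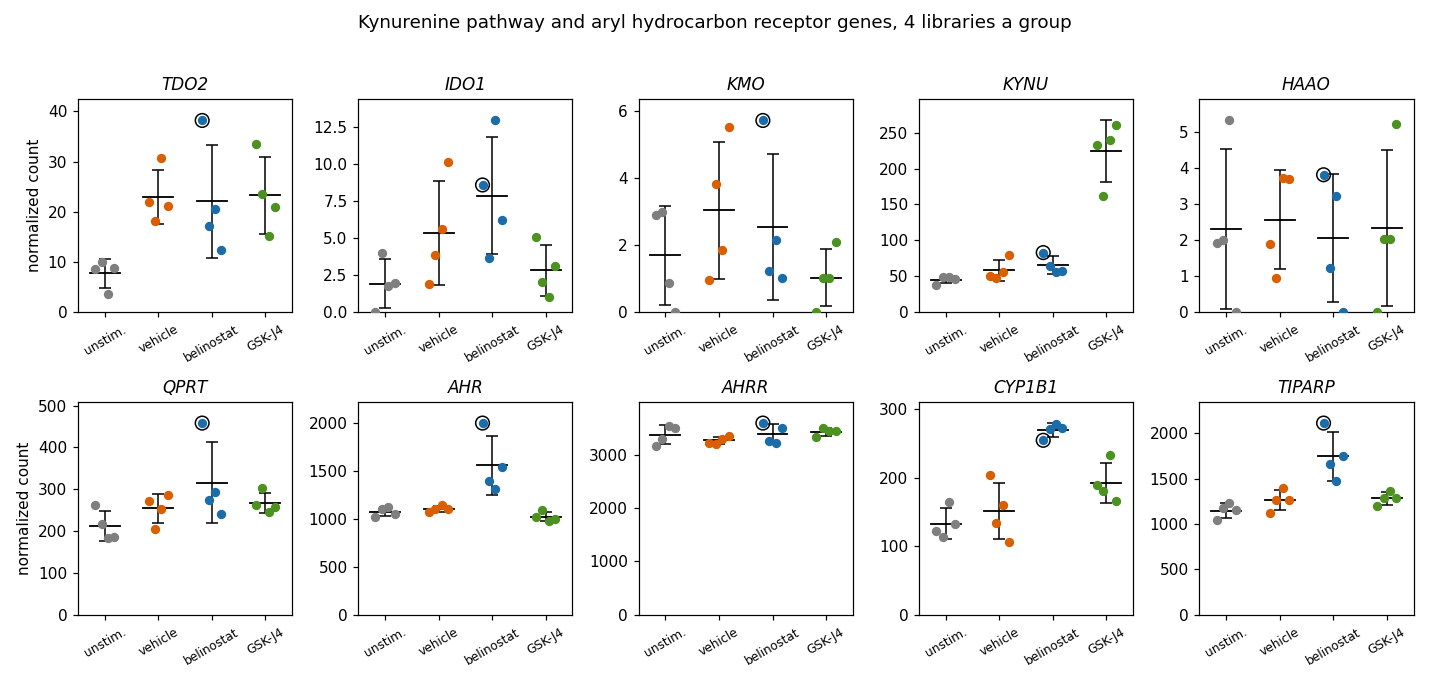
Normalized counts of the 10 genes in each of the 16 libraries (points), with the mean and SD of each group of 4 (bars). Circled points are belinostat replicate 17, and the vertical axes start at 0 and differ between panels. KYNU was highest in the 4 GSK-J4 libraries (162 to 261), and AHR, CYP1B1 and TIPARP were highest in the 4 belinostat libraries.

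TDO2, tryptophan dioxygenase, which opens the route, was higher in each of the 3 pulsed groups than in unstimulated cells. TDO2 had 8.69, 10.0, 3.55 and 8.79 normalized counts in the unstimulated libraries and 21.9, 18.2, 30.7 and 21.2 in the vehicle libraries. It had 38.2, 17.1, 20.5 and 12.5 under belinostat and 33.6, 23.5, 15.2 and 20.96 under GSK-J4. Every pulsed library lay above the highest unstimulated one, and the 3 pulsed groups overlapped each other. Against unstimulated cells the log2 fold change was 1.58 in vehicle (SE 0.43, DESeq2 adjusted p 0.0192), 1.53 under belinostat (SE 0.43, adjusted p 0.00728) and 1.60 under GSK-J4 (SE 0.43, adjusted p 0.00675). These 3 comparisons share the unstimulated libraries. Between the pulsed groups, TDO2 differed from vehicle by a log2 fold change of -0.05 under belinostat (95% interval -0.80 to 0.70) and of 0.02 under GSK-J4 (95% interval -0.72 to 0.76), intervals that leave room for changes in either direction. The counts behind TDO2 were low, at 4 to 40 estimated counts a library. The vehicle call was lost in edgeR's quasi-likelihood test (adjusted p 0.0591) and on leaving out unstimulated replicate 3 or 4 or vehicle replicate 15 or 16 (log2 fold changes 1.33, 1.65, 1.41 and 1.62). The belinostat call was lost without belinostat replicate 17 (1.115, adjusted p 0.0912), and the GSK-J4 call without unstimulated replicate 3 or GSK-J4 replicate 21 (1.35 and 1.37).

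IDO1, the dioxygenase that interferons induce, KMO, which hydroxylates kynurenine, and HAAO, which makes the precursor of quinolinate, were close to the limit of detection in every group. IDO1 had 0 to 12.9 normalized counts and was at 0 in 1 library, KMO had 0 to 5.73 and was at 0 in 2, and HAAO had 0 to 5.33 and was at 0 in 3. The largest estimated count of any library was 12 for IDO1, 6.13 for KMO and 6 for HAAO. Group means of IDO1 were 1.93 ± 1.64 in unstimulated cells, 5.37 ± 3.52 in vehicle, 7.86 ± 3.94 under belinostat and 2.82 ± 1.74 under GSK-J4, and each pair of groups overlapped. DESeq2's filter on low counts left IDO1 without an adjusted p in 4 of the 6 comparisons. Its unadjusted p was 0.00982 in belinostat against unstimulated and 0.0462 in belinostat against GSK-J4, and its adjusted p was 0.628 in vehicle against unstimulated. For KMO and HAAO differences were not detectable at this depth, and no fold change is given for the 3 genes, whose counts were this low. IDO2, the paralog of IDO1, had 2.16 to 9.76 normalized counts.

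KYNU, kynureninase, which splits kynurenine and hydroxykynurenine, had its highest levels in the libraries given GSK-J4. KYNU had 38.6, 49.1, 48.8 and 45.9 normalized counts in unstimulated cells and 50.4, 47.9, 55.9 and 79.3 in vehicle. It had 83.1, 64.7, 56.1 and 57.1 under belinostat and 233, 162, 239.8 and 261 under GSK-J4. The lowest GSK-J4 library thus lay above the highest library of any other group. As a description, since these values chose the gene, the GSK-J4 mean of 224 ± 43.1 was 3.83-fold the vehicle mean of 58.4 ± 14.3 (log2 fold change 1.94, SE 0.20) and 4.91-fold the unstimulated mean of 45.6 ± 4.88 (2.30, SE 0.20). Below GSK-J4, the order of group means was belinostat (65.2 ± 12.5), vehicle and unstimulated, where neighbouring groups overlapped. Belinostat against unstimulated compares groups that had no part in the choice of the gene. Its SE and p still come from the fit of all 16 libraries, GSK-J4 and vehicle among them. In this comparison the 4 belinostat libraries lay above the 4 unstimulated ones. The log2 fold change of 0.52 (SE 0.22) was nevertheless not called (DESeq2 adjusted p 0.113). Of all genes tested in that comparison, 12.3% had groups that did not overlap. Without belinostat replicate 17 the value was 0.38 (adjusted p 0.358). Beside the KYNU values, the GSK-J4 libraries were shallower than those of vehicle (16.7 to 17.5 M against 18.4 to 18.8 M). Their fibroblast markers summed to 34664 to 36302 CPM, against 32260 to 33357 in vehicle. The part of these differences in the results was not tested.

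QPRT (chr16:29663279-29698699), the enzyme that carries quinolinate into NAD synthesis, varied less. QPRT had 262, 217, 185 and 186 normalized counts in unstimulated cells, 273, 206, 252 and 287 in vehicle, 458, 274, 293 and 239.8 under belinostat and 263, 303, 247 and 258 under GSK-J4. Belinostat replicate 17 was the highest library, and all groups overlapped. Its only call was belinostat against unstimulated (log2 fold change 0.58, SE 0.18, adjusted p 0.0167), which was lost without belinostat replicate 17 (0.34, adjusted p 0.118), in edgeR (adjusted p 0.0509), without unstimulated replicate 3 or 4 (0.52 each), and in a fit of these 2 groups alone (0.57, adjusted p 0.0774).

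Promoter sequence was drawn from RefSeq (GRCh38.p14) for the kynurenine genes on which these values turn, TDO2 and KYNU, as the 250 bases before the annotated start, on the plus strand and written 5′ to 3′. TDO2 lies at chr4:155854738-155920406 and KYNU at chr2:142877657-143055833 in GENCODE (GRCh38), and the windows are chr4:155903446-155903695 and chr2:142877414-142877663. Capitals mark a match to TGANTCA, a loose form of the site of AP-1 factors in which N is any base. The pattern was searched on both strands. It was found in TDO2, 244 bases before the start, and in none of the other windows of these genes. In TDO2 that base is T, so the match need not be an AP-1 site. Of all 35116 RefSeq promoters of this length, 6.57% held the pattern.
TDO2: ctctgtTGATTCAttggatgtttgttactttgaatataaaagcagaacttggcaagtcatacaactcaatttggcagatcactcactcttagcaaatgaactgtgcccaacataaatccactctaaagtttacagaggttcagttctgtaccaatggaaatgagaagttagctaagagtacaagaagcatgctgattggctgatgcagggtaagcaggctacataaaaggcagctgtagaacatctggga
KYNU: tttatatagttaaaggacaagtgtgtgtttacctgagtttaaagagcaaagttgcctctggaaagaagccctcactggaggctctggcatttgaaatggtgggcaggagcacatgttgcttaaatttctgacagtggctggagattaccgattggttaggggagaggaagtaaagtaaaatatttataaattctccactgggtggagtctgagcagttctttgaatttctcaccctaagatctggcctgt

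The 14 other genes of kynurenine handling and NAD synthesis (such as IDO2, AFMID, KYAT3 and NAMPT) held 0 called genes by DESeq2 in each of the 6 comparisons, and also 0 by edgeR. With 1.74% to 12.2% of all genes called and 11 to 13 of the 14 tested, a count of 0 in so short a list lies close to the background. At an unadjusted p under 0.05 DESeq2 gave 0 or 1 of them. NAMPT, the rate-limiting enzyme of NAD salvage, was higher in belinostat replicate 17 (3379 normalized counts) than in the other 3 belinostat libraries (2139 ± 54.7, SD, n = 3), and without that library it was called lower under belinostat than under GSK-J4 (log2 fold change -0.22, adjusted p 0.0290). Among 12 genes of tryptophan uptake and its other fates, 1 was called in belinostat against vehicle, SLC7A8, a carrier of large neutral amino acids. DESeq2 tested 7 of the 12 there. Of all genes tested, 6.26% were called and 11.4% had groups that did not overlap. SLC7A8 had 37.1, 29.7, 35.4 and 26.7 normalized counts in vehicle and 23.9, 14.7, 15.1 and 15.6 under belinostat, with no overlap. Its log2 fold change was -0.88 (SE 0.27, DESeq2 adjusted p 0.0243), and -0.85 against unstimulated cells (SE 0.27, adjusted p 0.0242). Each call was lost in 5 of 8 fits without 1 library of its groups (adjusted p 0.00952 to 0.113 and 0.0120 to 0.0873). The first was kept without vehicle replicate 14 or 16 or belinostat replicate 17, the second without unstimulated replicate 2 or 3 or belinostat replicate 17. SLC7A5, the main tryptophan carrier, had 488 normalized counts in belinostat replicate 17 and 114 to 132 in the other 3, and it was not called in any comparison with all libraries. Without replicate 17, SLC7A5 (log2 fold change -0.66, adjusted p 0.00436), its partner chain SLC3A2 (-0.29, adjusted p 4.18e-05) and SLC7A8 (-0.90, adjusted p 0.0373) were called lower under belinostat than under GSK-J4, where with all libraries DESeq2 called none of the 3 and 12.2% of all genes (edgeR called SLC7A8, adjusted p 0.0457).

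AHR itself, at chr7:16916359-17346152, rose under belinostat. An unnamed gene of the same strand shares 2373 bases of its canonical exons and another of the opposite strand 270, so the split of reads there is uncertain. The receptor had 1019, 1098, 1126 and 1049 normalized counts in unstimulated cells and 1072, 1103, 1147 and 1102 in vehicle. It had 1996, 1391, 1309 and 1539.8 under belinostat and 1023, 1093, 976 and 999 under GSK-J4. All 4 belinostat libraries were above the other 12, replicate 17 most of all, and the other 3 groups overlapped. The share of all genes with this pattern was not counted. In belinostat against vehicle alone, 11.4% of all genes tested had groups that did not overlap. Against vehicle the log2 fold change was 0.50 (SE 0.10, DESeq2 adjusted p 5.00e-05), a 1.41-fold difference of means. Without replicate 17 it was 0.35 (SE 0.06, adjusted p 2.36e-06), and the call held in all 8 fits without 1 library. AHR was likewise higher under belinostat than under GSK-J4 (0.61, SE 0.10, adjusted p 7.68e-08) and than in unstimulated cells (0.54, SE 0.10, adjusted p 4.85e-06). Under GSK-J4 the difference from vehicle was -0.11 (95% interval -0.31 to 0.09) and was not called. Beside these values, the belinostat libraries were shallower (14.4 to 18.3 M against 18.4 to 18.8 M in vehicle), and their fibroblast markers summed to 26532 to 31043 CPM against 32260 to 33357. Their 6 epithelial markers summed to 24.1 to 29.9 CPM against 20.7 to 22.2, most of it KRT8, with KRT20 at 0 in every library. The part of these differences in the results was not tested.

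TIPARP (chr3:156673235-156706770), a mono-ADP-ribosyltransferase that AHR induces and that dampens the receptor, moved in the same direction under belinostat. TIPARP had 1041, 1172, 1230.4 and 1151 normalized counts in unstimulated cells and 1124, 1265, 1393 and 1268 in vehicle. It had 2113, 1659, 1470.5 and 1749.5 under belinostat and 1196, 1285, 1366 and 1286 under GSK-J4. Again the 4 belinostat libraries lay above the other 12 and replicate 17 was highest. The log2 fold change against vehicle was 0.47 (SE 0.10, DESeq2 adjusted p 7.28e-05), and 0.37 without replicate 17 (SE 0.08, adjusted p 2.76e-04). Against GSK-J4 it was 0.45 (SE 0.10, adjusted p 9.74e-05) and against unstimulated cells 0.61 (SE 0.10, adjusted p 4.07e-08).

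CYP1B1 (chr2:38066973-38109902, minus strand), a cytochrome P450 and a classical AHR target, showed the largest fitted rise of the called receptor genes in belinostat against vehicle and against unstimulated cells, and replicate 17 was not its highest library. CYP1B1 had 123, 114, 164 and 133 normalized counts in unstimulated cells and 204, 134, 160.2 and 107 in vehicle. It had 255, 271, 279 and 273 under belinostat and 189, 181, 234 and 166 under GSK-J4. The belinostat libraries were the 4 highest, the GSK-J4 libraries all exceeded the unstimulated ones, and vehicle overlapped both. The log2 fold change of belinostat against vehicle was 0.83 (SE 0.17, DESeq2 adjusted p 4.22e-05), a 1.78-fold difference, and 0.86 without replicate 17 (SE 0.18, adjusted p 1.02e-04). Against unstimulated cells it was 1.01 (SE 0.17, adjusted p 1.79e-07). Smaller differences passed the threshold less firmly. GSK-J4 against unstimulated gave 0.53 (SE 0.17, adjusted p 0.0403; edgeR 0.0743) and belinostat against GSK-J4 gave 0.49 (SE 0.17, adjusted p 0.0321; edgeR 0.0505). Each was lost in 6 of 8 fits without 1 library of its groups: the first was kept only without unstimulated replicate 3 or GSK-J4 replicate 24 (adjusted p 0.0104 to 0.207 over the 8 fits), the second only without belinostat replicate 17 or GSK-J4 replicate 23 (0.0110 to 0.126). CYP1B1-AS1, transcribed from the opposite strand over 674 bases of CYP1B1 exons, had 22.9 to 29.3 normalized counts under belinostat and 10.2 to 27.6 in the other 3 groups. Whether counting used strand is not given in the sources used here, so reads of the pair cannot be told apart with certainty.

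AHRR (chr5:321714-438291), the receptor's repressor and a target of it, was the most even of the 10 genes. AHRR ranged from 3163 to 3593 normalized counts over all 16 libraries, with a coefficient of variation of 4.10%, and all groups overlapped. Its group means were 3373 ± 178 in unstimulated cells, 3269 ± 65.1 in vehicle, 3389.7 ± 187 under belinostat and 3429 ± 74.8 under GSK-J4. Belinostat differed from vehicle by a log2 fold change of 0.05 (95% interval -0.04 to 0.15) and GSK-J4 by 0.07 (95% interval -0.02 to 0.16). The read-through gene PDCD6-AHRR shares 5555 bases of AHRR exons and had 0 to 73.5 normalized counts, so the split of reads between the 2 is uncertain.

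Windows of 250 bases before the start are shown for AHR (chr7:17298402-17298651), TIPARP (chr3:156674340-156674589) and AHRR (chr5:321464-321713), since AHR and TIPARP were called higher under belinostat and AHRR was not called. All lie on the plus strand of GRCh38.p14 and come from RefSeq, where TIPARP has 3 start sites and AHRR 2; the first of each is shown. Capitals mark GCGTG, the core of the xenobiotic response element, or its complement on the other strand. It was found 208 and 142 bases before the start in TIPARP and 30 bases before it in AHRR, where it is part of the longer TNGCGTG. The AHR window held none. CYP1B1 had no entry among the promoters used, and IDO1 was left out. Over the 8 members read, 3 of 12 start sites held GCGTG (1 of TIPARP and both of AHRR), against 32.2% of all promoters. TNGCGTG was held by 1, against 4.52%.
AHR: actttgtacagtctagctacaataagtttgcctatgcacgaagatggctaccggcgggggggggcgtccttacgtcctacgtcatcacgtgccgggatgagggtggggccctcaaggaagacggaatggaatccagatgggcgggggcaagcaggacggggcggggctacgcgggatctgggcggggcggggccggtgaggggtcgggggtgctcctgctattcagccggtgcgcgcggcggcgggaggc
TIPARP: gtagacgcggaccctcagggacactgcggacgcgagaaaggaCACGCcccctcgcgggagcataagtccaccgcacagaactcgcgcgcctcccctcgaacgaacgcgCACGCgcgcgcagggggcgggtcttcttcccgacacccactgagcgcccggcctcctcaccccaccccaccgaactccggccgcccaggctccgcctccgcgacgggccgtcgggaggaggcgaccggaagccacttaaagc
AHRR: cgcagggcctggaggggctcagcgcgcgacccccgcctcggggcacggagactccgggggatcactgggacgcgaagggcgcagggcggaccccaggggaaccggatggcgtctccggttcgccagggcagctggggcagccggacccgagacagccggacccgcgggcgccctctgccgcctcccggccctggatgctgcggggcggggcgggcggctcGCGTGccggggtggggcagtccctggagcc

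Read against all genes, the 9 members other than KYNU were compared group by group, by calls and by whether the libraries of the groups overlapped. In vehicle against unstimulated 1 of the 9 was called, TDO2, higher and without overlap. Of the 16240 genes tested 1.74% were called, 1.10% higher, and 6.93% had groups that did not overlap. In belinostat against vehicle 3 were called, AHR, CYP1B1 and TIPARP, all higher and without overlap, with 6.26% of 14209 genes called, 3.12% higher, and 11.4% not overlapping. The same 3 remained called in edgeR and without belinostat replicate 17. In GSK-J4 against vehicle 0 of the 9 were called by DESeq2 and 0 by edgeR, with 1 (CYP1B1) at an unadjusted p under 0.05. All 9 overlapped there, and of 13197 genes 1.92% were called and 10.0% did not overlap. Belinostat against GSK-J4 called AHR, CYP1B1 and TIPARP, all higher under belinostat and without overlap, with 12.2% of 14717 genes called, 6.18% higher, and 17.0% not overlapping. Belinostat against unstimulated called 5 (TDO2, QPRT, AHR, CYP1B1 and TIPARP), all higher and all but QPRT without overlap, and 3 without belinostat replicate 17. Of the genes tested 10.3% were called, 5.51% higher, and 12.3% did not overlap. GSK-J4 against unstimulated called TDO2 and CYP1B1, both higher and without overlap, with 5.55% of 16747 genes called, 3.18% higher, and 11.9% not overlapping. DESeq2's filter on low counts left 6 to 8 of the 9 with an adjusted p. In belinostat against vehicle their median log2 fold change was 0.39, or 0.22 without belinostat replicate 17, and that of all genes tested was 0.00. Comparisons that use the same vehicle or unstimulated libraries are not independent of each other.

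**Figure D2:**
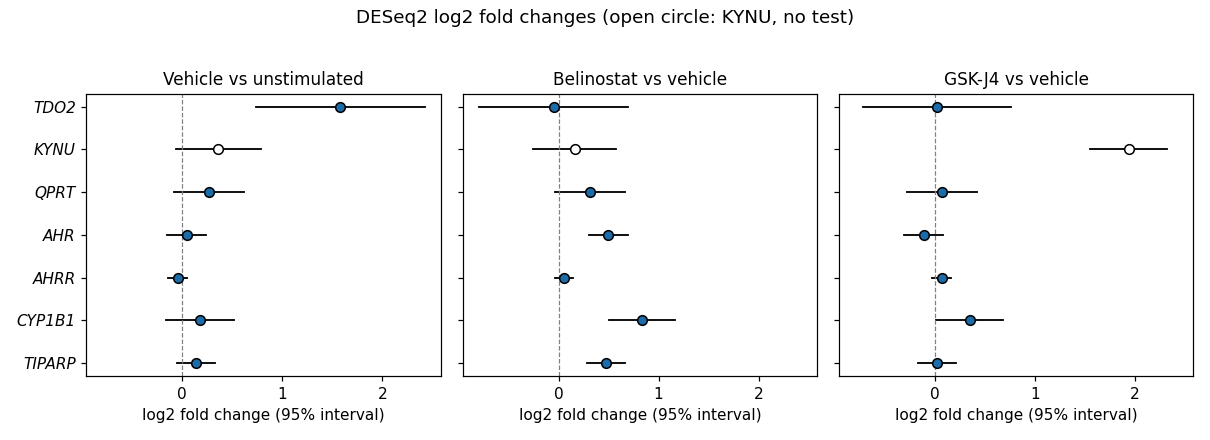
DESeq2 log2 fold changes (points) with 95% intervals (lines) of 7 genes in vehicle against unstimulated, belinostat against vehicle and GSK-J4 against vehicle. TDO2 lay above 0 in the first comparison (1.58), AHR, CYP1B1 and TIPARP in the second (0.50, 0.83 and 0.47); KYNU (open circles) is shown as a description.

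The partners of AHR were described from a list of 11 genes. ARNT, which pairs with AHR on DNA, had 1435 to 1694 normalized counts over all libraries and was called in no comparison. HIF1A, the hypoxia factor that also pairs with ARNT, had 7036 to 7316 normalized counts in unstimulated cells and 7868 to 9093 in the pulsed groups, with no overlap. It was called higher in vehicle (log2 fold change 0.25, DESeq2 adjusted p 6.92e-09), under belinostat (0.30, adjusted p 1.36e-13) and under GSK-J4 (0.21, adjusted p 2.52e-06) than in unstimulated cells. In these comparisons 6.93%, 12.3% and 11.9% of all genes tested did not overlap. ARNT2, a second partner, had 1806, 2007, 1989 and 2015 normalized counts in unstimulated cells and 1254, 1642, 1656 and 1652 under belinostat, with no overlap, and was called lower (-0.33, SE 0.08, adjusted p 0.00173; -0.24 and 0.00329 without replicate 17). In belinostat against vehicle 0 of the 11 were called by DESeq2 and by edgeR, where DESeq2 called 6.26% of all genes tested. In so short a list a count of 0 lies close to that share. By DESeq2 2 were at an unadjusted p under 0.05, and the median of the list was -0.05. Without replicate 17, HSP90AB1, a chaperone of the receptor, was called lower there (-0.16, adjusted p 0.00477).

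The median of other AHR targets under belinostat turned on replicate 17. Of 12 such genes 6 had an adjusted p in belinostat against vehicle, with a median log2 fold change of 0.03, and 0 were called by DESeq2 or edgeR (1 at an unadjusted p under 0.05), beside 6.26% of all genes tested. Without replicate 17 the median was -0.47 and 1 was called, NQO1. CYP1A1, the target most used as a readout of AHR, had 33.8, 21.02, 5.33 and 37.1 normalized counts in unstimulated cells and 15.2, 22.04, 20.5 and 8.30 in vehicle. It had 40.1, 6.11, 18.3 and 4.15 under belinostat and 26.4, 14.3, 14.2 and 12.6 under GSK-J4. CYP1A1 overlapped between all groups, and the 95% interval of belinostat against vehicle ran from -1.14 to 1.28 on the log2 scale. NQO1, a quinone reductase that NRF2 also induces, had 4352, 4303, 4244 and 5349 normalized counts in vehicle and 6305, 2940.3, 2656 and 2940.4 under belinostat. Replicate 17 was the highest library of all and the other 3 belinostat libraries the lowest. NQO1 was not called with all libraries (-0.30, DESeq2 adjusted p 0.619) and was called lower without replicate 17 (-0.68, SE 0.11, adjusted p 2.28e-07). ABCG2, an efflux pump, had 41.0 to 57.3 normalized counts under belinostat and 29.5 to 47.1 under GSK-J4, which overlapped. It had 21.2 to 40.03 in vehicle and unstimulated cells. It was called in belinostat against unstimulated (0.70, SE 0.25, adjusted p 0.0488), a call lost in edgeR (0.0534) and without replicate 17 (0.155), and in 6 of 8 fits without 1 library in all.

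**Figure D3:**
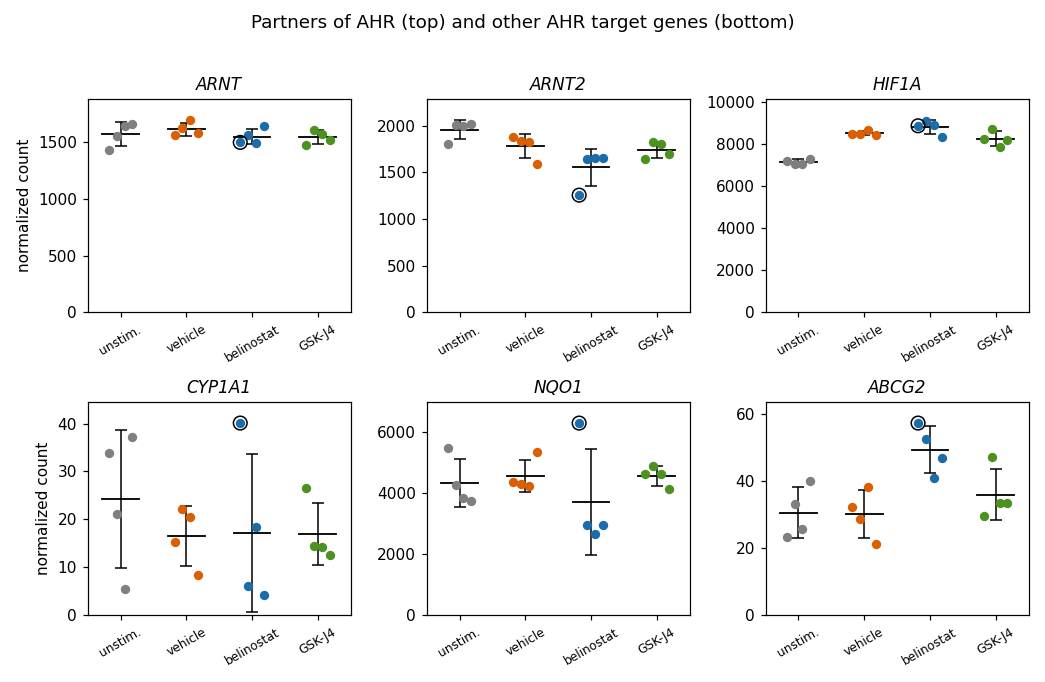
Normalized counts of ARNT, ARNT2 and HIF1A (top) and of CYP1A1, NQO1 and ABCG2 (bottom) in each library (points), with the mean and SD of each group of 4 (bars) and belinostat replicate 17 circled. HIF1A lay at 7036 to 7316 in unstimulated cells and at 7868 or above in the others, and in NQO1 belinostat replicate 17 (6305) stood opposite the rest of its group (2656 to 2940.4).

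Because interferons induce IDO1, 13 genes of interferon signalling were read beside it. In vehicle against unstimulated 0 were called by DESeq2 and edgeR, where DESeq2 called 1.74% of all genes tested. In so short a list a count of 0 lies close to that share, and 1 was at an unadjusted p under 0.05. SOCS1, a feedback inhibitor of cytokine receptors, was the gene of this list with the strongest calls. SOCS1 had 130.4, 119.8, 150.0 and 159 normalized counts in vehicle, 56.3, 73.3, 77.7 and 90.3 under belinostat and 197, 316, 286 and 192 under GSK-J4. These 3 groups did not overlap, and the log2 fold change against vehicle was -0.91 under belinostat (SE 0.19, DESeq2 adjusted p 1.15e-04) and 0.83 under GSK-J4 (SE 0.18, adjusted p 6.45e-04). Of all genes tested, 11.4% did not overlap in belinostat against vehicle and 10.0% in GSK-J4 against vehicle. CXCL10 was lower under belinostat than under GSK-J4 (-2.18, SE 0.61, DESeq2 adjusted p 0.00536), at 2.86 to 9.71 against 17.3 to 38.9 normalized counts. It had 3.73 to 30.5 in vehicle, which overlapped both, and was not called against vehicle for either compound. In unstimulated cells it had 5.33 to 15.4. In belinostat against GSK-J4 DESeq2 called 3 of the 10 list genes tested (CXCL10, GBP2 and SOCS1). Of all genes tested there, 12.2% were called and 17.0% did not overlap. GBP2 was higher under belinostat than under GSK-J4 by a log2 fold change of 0.14 (DESeq2 adjusted p 0.0202), a call not made by edgeR. Both DESeq2 and edgeR called GBP2 lower under GSK-J4 than in unstimulated cells. It had 3501 to 3803 normalized counts there against 3938 to 4436, with no overlap. In that comparison 5.55% of all genes tested were called and 11.9% did not overlap.

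The genes whose levels were most like KYNU over the 16 libraries, among 11740 genes with a mean of at least 50 normalized counts, were MDM2 (Pearson r 0.95 on log2 values), TYMS (0.92), DDB2 (0.92), RNF40 (0.91) and CYP2S1 (0.91). These values are descriptions, since the points fall into groups and share libraries and depth. MDM2, the ubiquitin ligase of p53, averaged 1707 ± 34.6 normalized counts in vehicle and 2143 ± 57.1 under GSK-J4, and KYNU 58.4 and 224. TYMS, thymidylate synthase, averaged 166 ± 18.5 and 263 ± 27.1. By Spearman's rho only MDM2 and TYMS remained among the first 5. For the receptor genes the nearest by Pearson r were NPC1, PARM1 and CPED1 for AHR (0.95 each), TBX3, OIP5-AS1 and GAREM1 for TIPARP (0.92, 0.91 and 0.91), HACD2, RAB11FIP1 and USP46 for CYP1B1 (0.88, 0.88 and 0.87) and KIFC2, SLC25A37 and INPPL1 for AHRR (0.88, 0.85 and 0.83). For QPRT they were PLAU, TRMT11 and BMP2 (0.89, 0.89 and 0.88). Of these 15 genes, 1 (KIFC2) was also among the first 3 by Spearman's rho, where those of AHR ranked 197, 82 and 148, and NPC1 and AHR had a Pearson r of 0.88 without belinostat replicate 17.

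**Figure D4:**
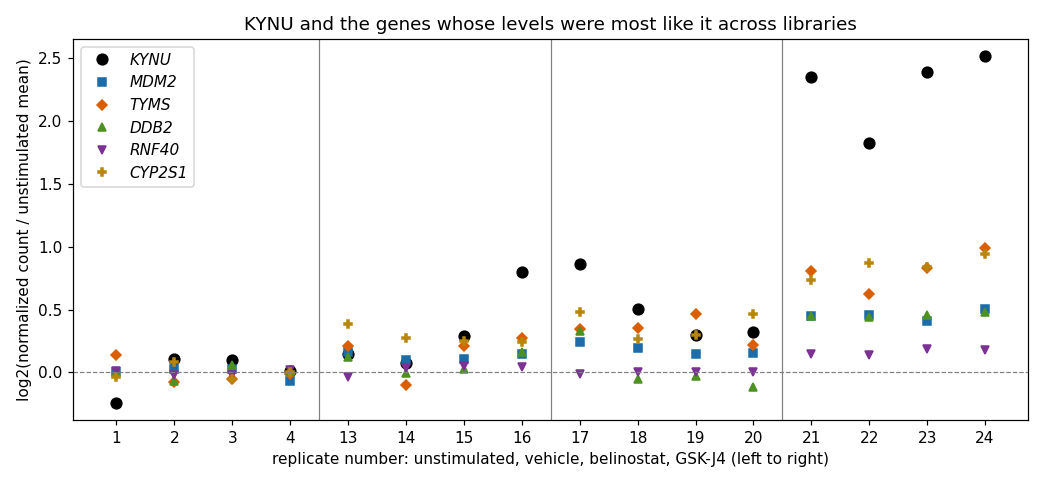
Levels of KYNU and the 5 genes most like it in each of the 16 libraries, as the log2 of the normalized count over the gene's unstimulated mean; vertical lines part the 4 groups. KYNU reached the highest values in the 4 GSK-J4 libraries, where MDM2, TYMS, DDB2, RNF40 and CYP2S1 were also above their other groups but by less.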

How the data were processed

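Bulk RNA-seq of 16 Ccd18-Co libraries was used. The submitters' processing notes name kallisto 0.48.0, with which the authors estimated transcript abundance, the quality tools FastQC 0.11.9 and MultiQC 1.14, and the build hg38. The authors deposited estimated counts per gene symbol, not scaled to library size; the transcriptome release, the summing of transcripts to symbols and the use of strand were not given in the sources used here. Estimated counts (28.0% with decimals) were rounded to whole numbers. For unstimulated cells the table's column names say none and the sample titles say DMSO, and the 2 were matched by group and replicate number. No pair of replicates agreed within sampling noise.

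All 16 libraries entered a single DESeq2 fit (version 1.42.0, R 4.3.3) by group, with size factors by the median of ratios, fold changes left unshrunken and independent filtering at its default. Genes were called at an adjusted p under 0.05. Alternatives were edgeR's quasi-likelihood test (4.0.16), TMM size factors, a filter of at least 10 counts in at least 4 libraries, fits of the 2 groups compared, and fits without each library. Fits by DESeq2 and edgeR were tried on counts simulated from DESeq2's own estimates of the spread, with changes set in the GSK-J4 group only. No outlying library was simulated, so the trial cannot speak to the effect of one. Depth was 14.4 to 19.5 M, and counting error is not separated from the replicate spread.

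The members, gene lists and tests were chosen with earlier results of these data known. The text names all 10 members, of each list at most 4 called genes with the smallest adjusted p, IDO2, ARNT and CYP1A1, and for each member with a mean of at least 50 the 3 genes (5 for KYNU) with the highest Pearson r on log2(normalized count + 1). NQO1, NAMPT, SLC7A5, SLC3A2, HSP90AB1 and genes overlapping members were named after their values were seen. Comparisons of KYNU that use GSK-J4 or vehicle libraries carry no p. Coordinates and transcript lengths are those of GENCODE v44 (GRCh38), looked up by symbol. Promoters are those of RefSeq (GRCh38.p14) and were read for 8 of the 10 members. CYP1B1 had no entry among them, and IDO1, on chromosome 8, was left out. Sequence of chromosome 8 was not printed.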

Additional observations from a re-analysis of the deposited data

Results flagged for a closer look

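Among 104 combinations of a gene and a group of 4 libraries, 10 passed Dixon's 95% limit for 4 samples. In these the highest or lowest library lay farther from its nearest neighbour than the limit. Chance alone gives about 1 in 20 combinations. Several of the genes (NQO1, NAMPT, SLC7A5 and SLC3A2 among them) were named after their values were seen, so the count cannot be set against that share. None of the 10 was a kynurenine pathway member or AHR, AHRR, CYP1B1 or TIPARP. Of them, 6 were belinostat replicate 17, which was the highest of its group in SLC7A8 (23.87 normalized counts), SLC7A5 (487.85), SLC3A2 (3307.08), NQO1 (6304.84) and NAMPT (3378.68) and the lowest in ARNT2 (1254.48). The remaining 4 were HIF1A in vehicle replicate 15 (8658.02), NQO1 in vehicle replicate 16 (5348.96), CYP1A1 in GSK-J4 replicate 21 (26.44), each high in its group, and ARNT2 in unstimulated replicate 1 (1805.63), low in its group.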

How the results depend on the processing

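No paired analysis was possible because the groups share no replicate numbers. In vehicle against unstimulated, edgeR called 159 genes and 0 of the 9 members other than KYNU where DESeq2 called 282 and 1, and fits without 1 library called 180 to 295 genes and 0 to 1 members. In GSK-J4 against vehicle, edgeR called 78 genes and a fit of the 2 groups 542, against 253, and fits without 1 library called 132 to 193. In belinostat against unstimulated, a fit of the 2 groups called 876 genes, against 1461, and fits without 1 library called 3 to 5 members (3 without belinostat replicate 17). In GSK-J4 against unstimulated DESeq2 called 2 members, edgeR 1, and fits without 1 library 0 to 2 (0 without GSK-J4 replicate 21, 2 without GSK-J4 replicate 24, 1 in the other 6). IDO1, KMO and HAAO were left out of these fold changes. Of the other members, none changed sign in a comparison where it was called. AHRR in belinostat against unstimulated went from 0.01 to -0.0016 with TMM size factors and ranged from -0.0214 to 0.0329 without 1 library. Leaving out 1 library also turned the sign of TDO2 in belinostat against vehicle (-0.47 to 0.15), GSK-J4 against vehicle (-0.21 to 0.19) and belinostat against GSK-J4 (-0.49 to 0.16), of QPRT (-0.0161 to 0.135) and TIPARP (-0.0281 to 0.0740) in GSK-J4 against vehicle, and of AHRR in belinostat against GSK-J4 (-0.0447 to 0.0086) and GSK-J4 against unstimulated (-0.0058 to 0.0464). The causes were not tested. Group means of members with a mean of at least 50 differed by at most 0.904% between CPM and size-factor scaling. Low counts limit IDO1, KMO and HAAO most.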
